A study of Homo sapiens with 24 samples.

Results

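In pancreatic progenitors (PP) that lacked the m6A demethylase ALKBH5, 5426 well-covered m6A peaks had no counterpart in wild-type PP. They were taken from the 55219 peaks of the ALKBH5 knockout (A5-KO) PP list as those with at least 32 input reads, lying inside a single GENCODE exon of their gene, and sharing no base on the same strand with a wild-type (WT) PP peak. Of the A5-KO PP peaks, 27865 had that input depth and 17769 of these also lay in a single exon, so the A5-KO-only peaks were 30.5% of the eligible peaks. The mirror selection in WT PP gave 8592 WT-only peaks among 21033 eligible ones (40.9%). The peaks were selected on their input reads and on the absence of a WT peak call, so their number and their lack of WT overlap are a description and not a tested difference.

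N6-methyladenosine (m6A) is placed on mRNA by a nuclear writer complex built around METTL3 and METTL14, mostly in the DRACH sequence context and often in long exons and near stop codons. ALKBH5 and FTO are the known erasers, and YTH domain proteins read the mark and steer mRNA decay, splicing or translation. In m6A-seq, RNA fragments precipitated with an antibody against m6A (IP) are read together with unprecipitated fragments (input), and stretches with more IP than input reads are called as peaks.

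All cells derived from MEL1 INS GFP/W, an established human embryonic stem cell line with a GFP reporter at an insulin (INS) allele, which all groups therefore carried. WT PP and A5-KO PP formed a second batch, prepared from total RNA with a Millipore antibody, and A5-KO refers to a line with Cpf1-made indels in the first ALKBH5 exon. Undifferentiated stem cells (hPSC), definitive endoderm (DE), PP and islet-like organoids (hILO) without the ALKBH5 edit formed a first batch, made from mRNA with a SYSY antibody. The 24 libraries comprised 2 IP and 2 input libraries for each of these 6 populations, and each population had 1 peak list, with a single IP and a single input count per peak.

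No value per library was at hand, so the spread between cultures is unknown and no difference below was tested. Wilson 95% intervals cover counting error only, and PCR copies are not independent molecules. Peaks of ALKBH5 itself held 289 input and 836 IP reads in WT PP, against 1 input and 592 IP reads in A5-KO PP. Of the WT input reads, 288 came from a single 737 nt peak outside the longest coding isoform, where the A5-KO PP peak spanned only 50 nt, so these sums do not compare the same bases and are no check of the knockout. All 10 markers of pancreatic progenitors examined had a peak in both lists. The pluripotency markers POU5F1, NANOG, SOX2 and LIN28A had none in either, although SOX2 had none in hPSC too, and A5-KO PP listed peaks on 7 of 14 genes in a wider list of pluripotency factors. Of 7 hepatic markers, WT PP listed 6 and A5-KO PP 5. In such bulk samples fewer cells of a type and less RNA per cell cannot be told apart.

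To show what was found on the genes that matter for pancreas formation, a DRACH site is printed for 8 peaks on pancreatic regulators that hold a GGAC word, and for the 2 most enriched peaks. Coordinates are on GRCh38 and the sequence runs 5′ to 3′ along the transcript. Capitals mark the 5-base site. The windows for SOX11 and STK38L run past the edge of their peak. The regulator peaks of PROX1 and WFS1, and a further peak each of SOX11 and ONECUT1, held no DRACH site.
FOXA2 (chr20:22582640-22582664, minus strand): agtggatcatGGACCtcttcccctt
MNX1 (chr7:157005665-157005689, minus strand): gccgcctgcgGGACTtgagggacag
ONECUT1 (chr15:52788032-52788056, minus strand): gactccctgaGGACTttgcattttg
NKX6-2 (chr10:132783374-132783398, minus strand): cccgcggggcGGACTccgtgttgaa
MYT1L (chr2:1923096-1923120, minus strand): taccgggccaGGACTgagtcagaaa
SOX11 (chr2:5700425-5700449, plus strand): aaaaaaaaaaGGACAactggaagta
CHGA (chr14:92932751-92932775, plus strand): cctcccgggaGGACAgccttgaggc
PCSK2 (chr20:17456381-17456405, plus strand): aggcattctgGGACAtctgcagctg
STK38L (chr12:27302221-27302245, plus strand): gcacccccagTGACTtttcattcat
ENSG00000271904 (chr5:88434193-88434217, minus strand): ttgctaattgGGACTcctaaaaaca

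The A5-KO-only peaks lay on 4283 genes, which were 46.1% of the 9295 genes with an eligible A5-KO PP peak. A single peak of this kind was found on 3417 genes, and 866 genes held 2 or more. Another eligible A5-KO PP peak that was shared with WT PP was present on 1967 of these genes, and 1789 also had a WT-only peak. Many transcripts thus held A5-KO-only peaks beside shared or WT-only ones.

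Protein-coding genes held 84.1% of the A5-KO-only peaks (interval 83.1% to 85.0%), compared with 92.6% of the eligible A5-KO PP peaks shared with WT PP and 89.1% of the WT-only peaks. Long noncoding RNAs held 13.1% (12.2% to 14.0%), against 5.38% of shared and 8.48% of WT-only peaks. The remaining 156 peaks were mostly on pseudogenes. The central 31 bases occurred more than once in the genome for 292 peaks (5.38%), a share close to the 5.39% of shared peaks.

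Peaks were short. The median length was 75 nt (quartiles 50 and 150), against 200 nt for shared and 100 nt for WT-only peaks, and 31.9% had 50 nt, the shortest length listed. Only 114 reached 500 nt. A longer peak has more bases with which to meet a peak of the other list, so the rule itself favours short peaks. The median input depth was 152 reads (quartiles 70 and 365), against 171 and 195 reads in shared and WT-only peaks, and together the A5-KO-only peaks held 6223538 IP and 2135231 input reads.

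On the transcripts, the A5-KO-only peaks were found chiefly in coding sequence and 3UTRs. Of the 3765 peaks that could be placed on the longest coding isoform of their gene, 47.3% had their midpoint in the CDS (45.7% to 48.8%), 45.4% in the 3UTR (43.8% to 47.0%) and 7.38% in the 5UTR (6.59% to 8.26%). Shared peaks were at 43.6%, 51.9% and 4.53%, and WT-only peaks at 38.1%, 51.2% and 10.7%. The CDS share was therefore highest in the A5-KO-only peaks, and the intervals of the CDS shares did not overlap between the 3 sets.

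Internal exons held 35.6% of the placed A5-KO-only peaks (34.1% to 37.1%), against 24.4% of shared and 24.5% of WT-only peaks. Last exons held 56.0%, compared with 69.4% and 62.1%. Exons of at least 400 nt, the kind in which m6A is usually concentrated, contained 74.1% of the A5-KO-only peaks (72.9% to 75.2%), 94.0% of the shared peaks and 84.5% of the WT-only peaks. Under the rule a peak had to fit in a single exon, and shared peaks were longer. These exon shares were not compared within classes of peak length. For the A5-KO-only peaks, exon length ran from 51 nt to 347300 nt with a median of 1226.5 nt. For 582 peaks on coding genes the exon belonged to another isoform and fell in an intron of the longest coding isoform.

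Around stop codons, where m6A is known to be dense, 15.5% of the placed A5-KO-only peaks had their midpoint within 200 nt (14.3% to 16.6%). Shared peaks reached 21.2% (20.5% to 22.0%) and WT-only peaks 14.6% (13.8% to 15.5%). The first 100 nt after the stop codon held 53.4 A5-KO-only midpoints per 1000 placed peaks, and the next 100 nt held 47.0 per 1000. For shared peaks these densities were 66.6 and 76.1, and for WT-only peaks 48.3 and 47.1. The A5-KO-only peaks thus rose towards the stop codon in the manner of the WT-only peaks and less than the shared peaks. Within 3UTRs their median distance from the stop codon was 700 nt, against 477 nt for shared and 860.5 nt for WT-only peaks.

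**Figure D1:**
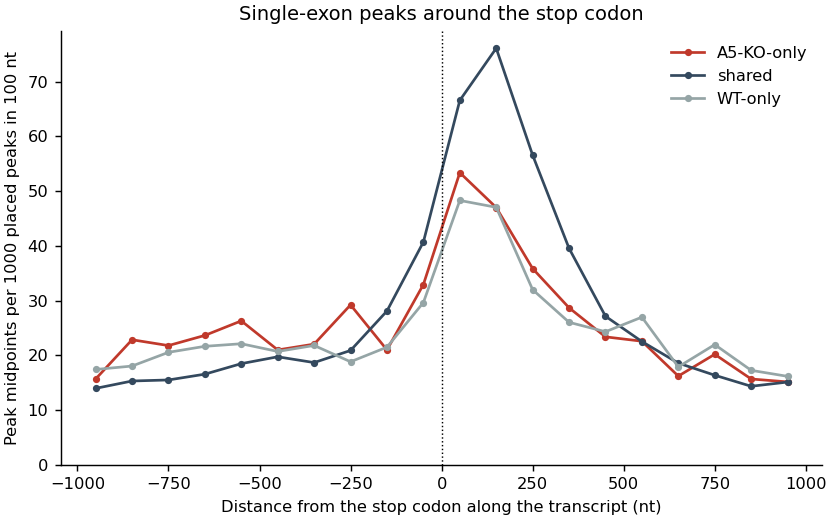
Midpoints of single-exon peaks per 1000 placed peaks in bins of 100 nt, against the distance from the stop codon along the longest coding isoform in nt. The bin just after the stop codon holds 53.4 per 1000 A5-KO-only, 66.6 per 1000 shared and 48.3 per 1000 WT-only peaks.

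The sequence context was searched for NNACN with A, G or T first, A or G second and A, C or T last, known as DRACH. At least 1 DRACH site was present on the transcript strand in 80.2% of A5-KO-only peaks (79.1% to 81.2%). The same letters read on the opposite strand were found in 72.5%, and 77.5% of 5789 peak-free windows of equal length beside the peaks in the same exon held a site. Windows that left the exon or met a peak were dropped, so the windows as a set are not matched in length to all A5-KO-only peaks. Of shared peaks 92.5% and of WT-only peaks 79.6% held a site. Within classes of length the A5-KO-only and shared peaks were closer. Up to 75 nt the shares were 69.5% of A5-KO-only (67.9% to 71.1%), 68.7% of shared and 64.3% of WT-only peaks (62.8% to 65.8%). From 76 to 150 nt they were 90.0%, 91.7% and 89.0%, and above 150 nt 98.5%, 99.5% and 98.3%. In the shortest class the intervals of A5-KO-only and WT-only peaks did not overlap.

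GGACT, a DRACH word that is often methylated, was present in 15.1% of the A5-KO-only peaks (14.2% to 16.1%), in 9.27% on the opposite strand and in 9.59% of the windows beside them. Shared peaks held it in 31.7% and WT-only peaks in 14.7%. These shares followed peak length. Up to 75 nt GGACT was present in 7.39% of A5-KO-only, 6.95% of shared and 6.17% of WT-only peaks, from 76 to 150 nt in 15.6%, 16.0% and 15.7%, and above 150 nt in 34.5%, 42.6% and 29.5%. In both shorter classes the intervals of the 3 sets overlapped, and above 150 nt they did not.

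The first-batch lists were not used to choose the peaks, so they give an independent look at whether the same stretches were called elsewhere. Of the A5-KO-only peaks, 33.0% shared a base with a peak of at least 1 of hPSC, DE, PP and hILO (31.7% to 34.2%). This compares with 77.4% of shared peaks (76.6% to 78.1%) and 35.1% of WT-only peaks (34.1% to 36.1%). By population, 22.7% overlapped a peak of hPSC, 18.5% of DE, 14.4% of PP and 16.9% of hILO. The PP share of the WT-only peaks was 14.2%, and its interval overlapped that of the A5-KO-only peaks.

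In all, 780 A5-KO-only peaks overlapped a peak of first-batch PP (14.4%, 13.5% to 15.3%), and 374 overlapped a peak at all 4 stages. A peak that was listed in PP alone was matched by 113 of them, and 297 matched hPSC alone. For 3637 peaks (67.0%) no stage held a peak at the position. Batch, antibody, RNA fraction and library kit all differ between the first 4 lists and the last 2, and their part in these overlaps was not tested.

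Longer peaks overlapped more. Up to 75 nt, 7.80% of A5-KO-only, 23.4% of shared and 10.8% of WT-only peaks overlapped a PP peak, and from 76 to 150 nt the shares were 10.6%, 29.1% and 11.7%. Above 150 nt they were 34.6%, 63.1% and 22.9%. The A5-KO-only peaks were below the shared ones in each class of length. They were below the WT-only peaks in the shortest class and above them in the longest.

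The 780 peaks that were also listed in first-batch PP resembled the shared peaks. Their GGACT share was 29.6% (26.5% to 32.9%), against 10.7% (9.73% to 11.7%) in the 3637 peaks listed at no stage. Their stop codon share was 22.0% (18.9% to 25.4%), against 12.6% (11.4% to 14.0%), and 6.92% were on long noncoding RNAs against 14.7%. They were longer too, with medians of 175 nt and 75 nt, while the median log2 enrichment of IP over input was 3.57 and 3.51.

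**Figure D2:**
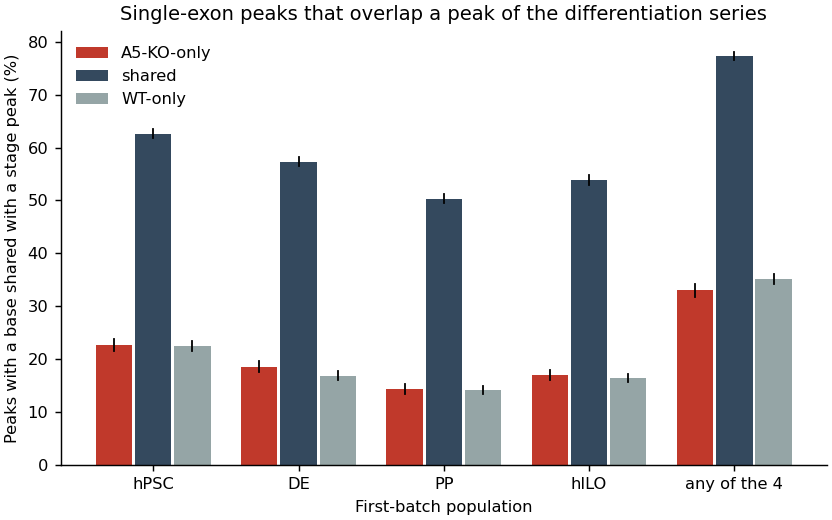
Percentage of A5-KO-only (5426), shared (12343) and WT-only (8592) single-exon peaks that share at least 1 base on the strand with a peak of each first-batch population, with Wilson 95% intervals as black lines. Shared peaks lie between 50.3% and 62.6% in the single stages, and A5-KO-only peaks between 14.4% and 22.7%.

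Absence of a WT peak at the position did not mean absence of the gene from the WT list. A WT PP peak elsewhere on the gene was listed for 81.7% of the A5-KO-only peaks (80.6% to 82.7%). It lay in the same exon for 51.8%. For 1063 of these peaks the WT peak was less than 100 nt away, for 1750 it was farther off in the exon with a median gap of 325 nt, and for 1619 it was in another exon.

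At the edge of the rule, 355 A5-KO-only peaks directly abutted a WT peak, with no base between them, and 361 shared peaks met theirs by only 25 nt, the step of the peak caller. The median log2 enrichment in these adjoining groups was 3.46 and 3.44, with medians of 414 and 420 IP reads. At the limit of 32 input reads, 51 peaks had exactly 32 and a median log2 enrichment of 3.64, and 44 peaks left out with 31 had 3.46.

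No WT peak at all was listed on the 874 genes of 994 A5-KO-only peaks. Long noncoding RNAs held 31.6% of these (28.8% to 34.5%), against 7.15% of the peaks within 100 nt of a WT peak in their exon. A first-batch PP peak elsewhere on the gene or at the site was listed for 254 of the 994, and a peak at any stage for 511. A peak list gives no reads outside peaks, so the WT PP depth at these genes is unknown.

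Enrichment is given as the deposited log2 of IP over input, which the peak caller had scaled. It exceeded the plain log2 ratio of the deposited counts by a median of 2.45 for A5-KO-only peaks, 2.49 for shared and 1.94 for WT-only peaks. Its median was 3.49 (quartiles 2.38 and 4.61) in the A5-KO-only peaks, 3.73 in the shared and 3.24 in the WT-only peaks, and the median plain ratio was 1.37, 1.49 and 1.44. The order of A5-KO-only and WT-only peaks thus turned with the scale. IP reads were fewer than input reads in 920 A5-KO-only peaks (17.0%), beside 14.2% of shared and 10.5% of WT-only peaks, although the caller gave each of the 920 a positive enrichment.

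The transcription factors that specify pancreatic progenitors carried few of these peaks. Of 28 listed factors with an eligible A5-KO PP peak, 8 had an A5-KO-only peak (28.6%, beside 46.1% of all genes), and 12 of their 80 eligible peaks were A5-KO-only (15.0%, beside 30.5% of all peaks). Among them were FOXA2, MNX1, NKX6-2, ONECUT1, PROX1, SOX11 and TEAD1. PDX1, NKX6-1, SOX9 and PTF1A had none, and each of their A5-KO PP peaks with at least 32 input reads met a WT PP peak. The PTF1A peak had its midpoint in an intron of the longest coding isoform, so it may not have been eligible.

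FOXA2, a pioneer factor of endoderm and pancreas, held the deepest of them. The 575 nt peak at chr20:22582430-22583004 in its CDS had 3968 input and 23568 IP reads in A5-KO PP, a log2 enrichment of 3.62 with a counting error of 0.025. The nearest WT peak in the exon began 325 nt away in the 3UTR, where WT PP had 269 input and 1014 IP reads. WT PP also had a 5UTR peak with 8797 input and 33179 IP reads, so the transcript was well covered there. First-batch PP listed a CDS peak inside the same stretch with 819 input and 5277 IP reads, and DE and hILO listed one too. The central 31 bases of the FOXA2 peak occurred at 2 places in the genome, so its reads may belong to either place.

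MNX1, a homeobox factor needed for the dorsal pancreas and beta cells, had an 825 nt peak at chr7:157004947-157005771 whose midpoint lay 161 nt after the stop codon. It had 164 input and 568 IP reads and a log2 enrichment of 3.47 with a counting error of 0.13. The 4 WT PP peaks of MNX1 lay in other exons and held 1508 input reads in all. DE, PP and hILO of the first batch listed the 3UTR stretch, with 13779 IP over 2202 input reads in PP. MNX1 and FOXA2 thus each had a stretch that A5-KO PP and first-batch PP listed and second-batch WT PP did not.

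ONECUT1 (HNF6), which acts early in pancreatic and liver development, had 2 A5-KO-only peaks. In the CDS, chr15:52789127-52789226 had 1425 input and 4773 IP reads and a log2 enrichment of 2.58, and it held no DRACH site. In an exon of another isoform, chr15:52788012-52788136 had 321 input and 212 IP reads and a log2 enrichment of 1.41. First-batch PP listed a peak over each of them, with 129 and 3114 IP reads. The second is one of the peaks with fewer IP than input reads.

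TEAD1, the Hippo pathway effector of progenitor enhancers, had 2 peaks in the 5UTR, with 212 and 64 input reads, 397 and 179 IP reads and log2 enrichments of 1.33 and 4.02. WT PP listed 3 TEAD1 peaks, with midpoints in introns of the longest coding isoform or in the 3UTR, and none in the 5UTR. A WT PP peak among them spanned 7207 nt. SOX11, a progenitor SOX factor, had 2 peaks 6511 and 6424 nt after the stop codon, deep in its long 3UTR, at log2 enrichments of 6.90 (38 input and 471 IP reads) and 4.35 (234 and 449). A WT PP peak lay 25 nt from the former. NKX6-2 in the 3UTR (69 input and 161 IP reads, log2 2.92) and PROX1 in the CDS (63 and 91, log2 3.11) also rested on few reads.

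Few endocrine genes had an eligible peak. Of 23 endocrine transcription factors only 2 had an eligible peak, and MYT1L, a zinc finger factor of neurons and islet cells, had the only A5-KO-only one, with 139 input and 325 IP reads, a log2 enrichment of 3.91 and 2 GGACT sites. WT PP and first-batch PP listed no peak on MYT1L. None of 7 islet hormone genes had an eligible peak. Of 14 eligible genes of beta cell function and diabetes, 3 had an A5-KO-only peak (21.4%, beside 46.1% of all genes), and 3 of their 22 eligible peaks were A5-KO-only (13.6%, beside 30.5% of all peaks).

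CHGA, which encodes the granule protein chromogranin A, had a 250 nt CDS peak with 2101 input and 2925 IP reads and a log2 enrichment of only 1.44, also listed in hPSC and DE. WFS1, the Wolfram syndrome gene, had a CDS peak centred 66 nt before the stop codon with 80 input and 185 IP reads (log2 2.49), followed by longer 3UTR stretches that both lists held. PCSK2, a proinsulin convertase, had 175 input and 157 IP reads (log2 2.28), and no WT PP peak. The counting errors of these 3 log2 values were 0.041, 0.19 and 0.16.

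**Figure D3:**
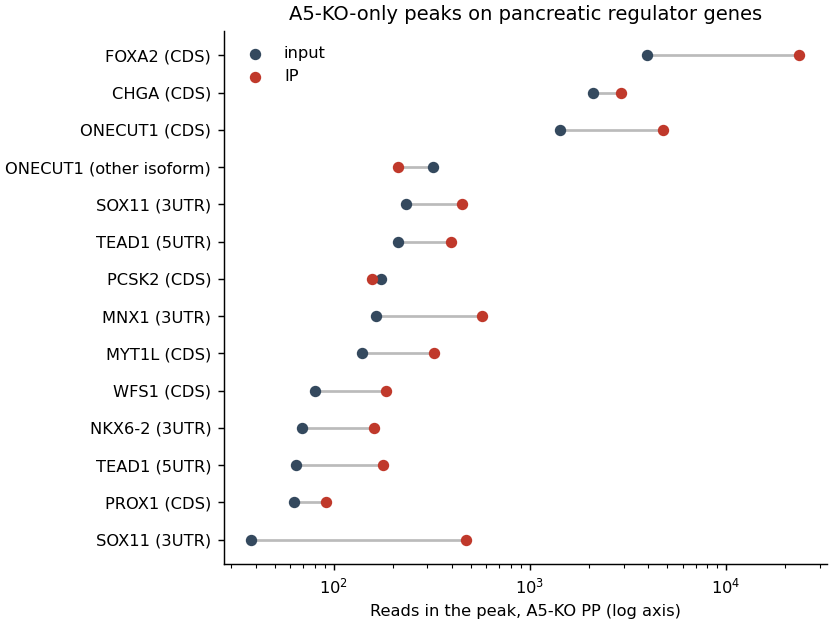
Input and IP reads of 14 A5-KO-only peaks on pancreatic progenitor factors, endocrine factors and beta cell genes, on a log axis and ordered by input reads. Each line joins the input and IP reads of a peak, and the label names its midpoint's region. FOXA2 runs from 3968 to 23568 reads, and IP is below input in 1 ONECUT1 peak and in PCSK2.

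The 4 core factors without an A5-KO-only peak were covered in both lists. PDX1 had 4 eligible A5-KO PP peaks with 2494 input and 7019 IP reads, and WT PP listed 2, of which 1 ran over 5536 nt of the locus with its intron. SOX9 had a 5UTR peak in both, with 14389 IP over 5661 input reads in A5-KO PP and 73403 over 19753 in WT PP. An 800 nt WT PP peak of SOX9, with 520 IP over 127 input reads and its midpoint in the 3UTR, overlapped a pair of A5-KO PP peaks, a CDS peak of 225 nt with 16896 IP over 3860 input reads and a 3UTR peak of 600 nt with 46 over 0. NKX6-1 had 3 A5-KO PP peaks, all in the 3UTR and with 592 input reads in all, and the WT PP peak over them had 115. WT PP also listed 2 CDS peaks of NKX6-1, with 913 and 1451 input reads, where A5-KO PP listed none. PTF1A had 1 peak in each list.

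Other gene lists are described by the share of eligible genes with an A5-KO-only peak, beside 46.1% for all, and by the share of eligible peaks, beside 30.5%. Chromatin methyltransferases and demethylases stood above the first and below the second: 20 of 34 genes (58.8%) but 34 of 159 peaks (21.4%). The same held for BAF and CHD remodelers, at 12 of 20 genes (60.0%) and 18 of 71 peaks (25.4%). Genes of these lists carried many eligible peaks each. Examples were KDM5B, a demethylase of histone H3 (1425 input and 6670 IP reads, log2 5.17), the methyltransferase KMT2C (577 and 2378, log2 5.07), TET1, which oxidizes methylated DNA (296 and 1146, log2 4.68), and CHD8 (423 and 2842, log2 5.35).

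Collagen, laminin and integrin genes were above both, with 18 of 31 genes (58.1%) and 24 of 66 peaks (36.4%). So were factors of deadenylation and mRNA decay, with 15 of 27 genes (55.6%) and 20 of 55 peaks (36.4%). SMG1, the kinase of nonsense-mediated decay, had 4 A5-KO-only peaks at log2 enrichments from 2.44 to 6.65, and PUM2, a repressor of translation, had 3435 input and 11800 IP reads (log2 4.96). Among m6A writers, erasers and readers, 8 of 18 genes (44.4%) and 13 of 40 peaks (32.5%) were close to the shares of all genes and peaks. The reader YTHDF1 had 3 peaks in its long coding exon, the deepest with 1015 input and 3802 IP reads (log2 4.19). METTL16, which methylates U6 snRNA, also had 3.

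Signaling lists were spread around the shares of all genes. Hedgehog genes stood at 6 of 9 (66.7%) and retinoic acid genes at 6 of 11 (54.5%), with 8 of 21 and 7 of 18 peaks. Wnt (12 of 29), TGF-beta, Nodal and BMP (12 of 29), Notch (7 of 17), FGF, EGF and RAS-MAPK (10 of 26) and Hippo genes (8 of 22) lay between 36.4% and 41.4%, and their peak shares between 20% and 26%. FGF10, a mesenchymal growth factor of the pancreatic bud, had 2 peaks in its 3UTR at log2 enrichments of 5.71 and 5.10. SMAD4, the common TGF-beta mediator, had a CDS peak with 64 input and 606 IP reads (log2 6.59), and NOTCH1 a 3UTR peak with 69 and 933 (log2 4.60) that all 4 stages also listed. Cell cycle and replication genes had 10 of 19 genes (52.6%) and 12 of 58 peaks (20.7%).

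Genes of other lineages were few, and their shares lay on both sides of the 46.1% of all genes and the 30.5% of all peaks. Of 8 eligible neural and mesenchymal genes 6 had an A5-KO-only peak (75%, and 7 of 12 peaks, 58.3%), among them NES, DCX, PDGFRA and SNAI1. Of 6 hepatic genes 3 had one (50%), APOA4, APOB and FGG, with 3 of 19 peaks (15.8%). Of 5 intestinal and gastric genes 3 did (60%), with 3 of 9 peaks (33.3%). BARX1, a factor of stomach mesenchyme, had 1116 input and 6395 IP reads (log2 4.17) with no WT peak on the gene. Of 5 eligible pluripotency genes 3 had such a peak (60%), KLF4, SALL4 and TRIM71, with 5 of 12 peaks (41.7%). Of 7 definitive endoderm genes FOXA2 alone did (14.3%), with 1 of 10 peaks (10%). What part the mix of cell types has in these counts was not tested.

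**Figure D4:**
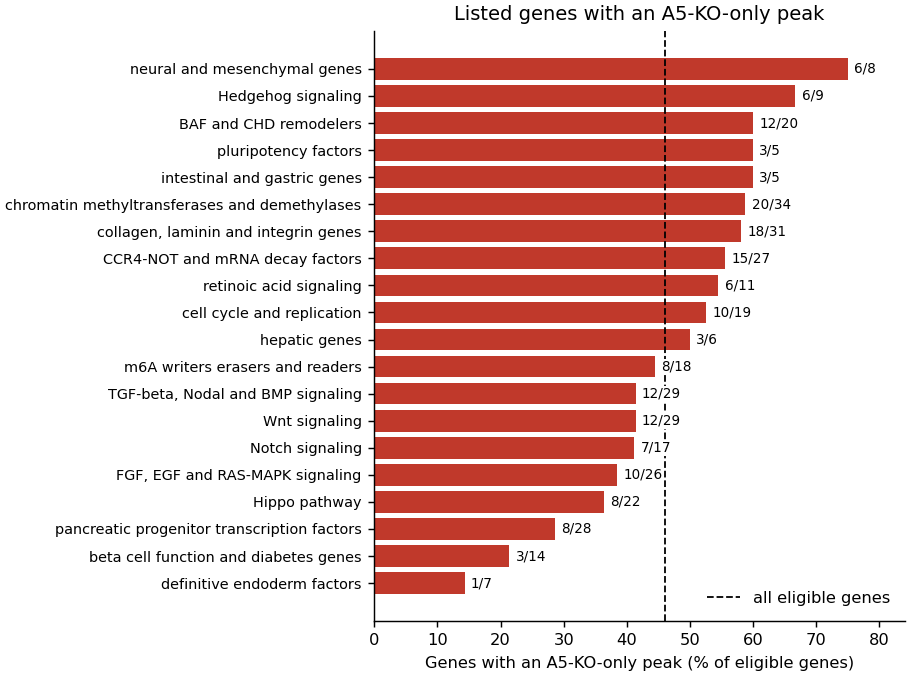
Share of genes with an A5-KO-only peak among the listed genes with an eligible A5-KO PP peak, in percent, for the 20 lists with at least 5 eligible genes. Numbers beside the bars are genes with such a peak over eligible genes, and the dashed line marks the 46.1% of all eligible genes. Pancreatic progenitor factors (28.6%), beta cell genes (21.4%) and endoderm factors (14.3%) are at the lower end.

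The most enriched A5-KO-only peak was on STK38L, a kinase gene of the Hippo network. It had 13244 IP reads over 56 input reads, a log2 enrichment of 11.03 with a counting error of 0.19, and lay in an exon outside the longest coding isoform. WT PP listed 1 STK38L peak in another exon with 43 input reads, while all 4 stages listed the A5-KO stretch at log2 enrichments from 1.34 to 1.90. The highest of these, in hPSC, came from 1933 IP over 204 input reads. The caller had scaled the lists differently, so these values cannot be set directly against 11.03. The next were the lncRNA ENSG00000271904 (8.48, 6983 over 193), KRTCAP3 (8.40, 1664 over 32), CNST (8.30) and RNU4-1 (8.27, 1510 over 32), a U4 small nuclear RNA whose central 31 bases occurred 3 times in the genome. MFSD14B, GOLGB1, ZRANB3, LINC01170 and ALPK2 followed at 8.15 to 7.95. Most of these peaks rested on under 100 input reads.

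The deepest A5-KO-only peaks gave another picture. GRIN3A, an NMDA receptor subunit gene with no WT PP or first-batch PP peak, held 3 of the 10 with most input reads, 75 nt each, with 49263, 24022 and 22102 input reads and fewer IP reads in each (29114, 9311 and 8608). USP9X, a deubiquitinase, had a 50 nt CDS peak with 42008 input and 132685 IP reads (log2 5.38) and no DRACH site. FGG, the fibrinogen gamma chain of liver cells, had 27756 input and 10518 IP reads in a 50 nt peak outside its longest coding isoform. CHPF2, HERC2, B3GNT7, ZNF213-AS1 and TM9SF3 made up the rest. Of these 10 peaks, 5 had fewer IP than input reads, counting CHPF2 with 20740 over 31083.

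By number of A5-KO-only peaks, XACT came first. This long noncoding RNA of pluripotent cells had 20, all in a single annotated exon of 347300 nt, with 1639 input and 5034 IP reads and log2 enrichments from 0.89 to 7.67. WT PP listed 40 peaks on XACT and A5-KO PP 88. TTN, the giant sarcomere gene, had 14, all in the CDS, at 1.17 to 6.10, with 98 WT PP peaks on the gene. FNTA, a prenyltransferase subunit, ZFHX3, a zinc finger homeobox factor, and PTPRD, a receptor phosphatase, had 6 each. A WT PP peak within 100 nt in the exon was listed for 2 of the 20 XACT peaks, 5 of the 14 TTN peaks, 3 of the 6 ZFHX3 peaks, 2 of the 6 PTPRD peaks and none of the FNTA peaks.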

How the data were processed

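Reads were trimmed (fastp) and aligned to GRCh38 (HISAT2) by the authors, who called peaks with exomePeak2 and deposited 1 list per population. How the 2 IP and 2 input libraries of a population were combined is not given in the sources used here. They deposited, per peak, read counts of IP and input, a log2 enrichment of IP over input scaled by the caller, and a p-value. Adjusted p-values and scores were not used. Nor is it given whether the counts are sums or means, and counting errors take them as sums. Thresholds named in the methods are 1.5 for IP/input and 1e-05 for p. Of the A5-KO-only peaks 61.4% had such a p, beside 67.7% of shared and 63.3% of WT-only peaks.

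Starts were made 1-based. Gene IDs were matched to GENCODE 44 (99.9% of A5-KO PP peaks). Overlap used the deposited spans, introns included, on the same strand. Midpoints were placed on the longest coding isoform. For 102 peaks with more than 1 host gene, a protein-coding gene and then the longest exon was preferred. Counting error of a log2 value came from counts with 0.5 added. Copies of the central 31 bases were counted over both strands of the genome. Scripts (Python 3.11.15, pandas 2.3.3, pysam 0.24.0, scipy 1.17.1) were tested on simulated data. Depth is known only as reads within peaks.

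The peaks and gene lists were chosen with earlier results of these data known. Named genes were the pancreatic regulators with an A5-KO-only peak (1 is not reported here), the 10 peaks with the highest log2 enrichment, the 10 with most input reads, the 5 genes with most peaks, up to 4 genes of each other list with the highest enrichment, and ALKBH5. Shares carry Wilson 95% intervals. Alternatives varied the input minimum, the overlap rule, the thresholds, the isoform and the windows.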

Additional observations from a re-analysis of the deposited data

How the results depend on the processing

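No paired analysis was possible because values per library were not at hand, and no replicate could be left out. Of 101 recomputed values 79 stayed within the interval of the reported share, within 1.5 times the count or within the counting error of the median, and 22 did not. The count of 5426 fell to 3482 with 100 input reads and to 3329 with p below 1e-05. The 5UTR share was 8.31% with 100 input reads, 8.70% when any overlapped region counted and 10.1% on the isoform that holds the midpoint. For the CDS share any overlap gave 53.0%. The 3UTR share was 47.3% with p below 1e-05, 47.1% with any overlap and 43.6% on the isoform that holds the midpoint. A stop codon window of 100 nt gave 8.71%. In the central 100 nt DRACH was present in 77.8% and GGACT in 10.9% of peaks. With over 50% of the peak covered, 10.2% overlapped PP and 27.3% any stage, and any stage reached 34.6% in exons of the longest coding isoform. The share with a WT peak on the gene was 77.2% without WT peaks within 100 nt and 73.7% when WT peaks needed 32 input reads. The share in exons of at least 400 nt was 70.6% without WT peaks within 100 nt, 77.1% in exons of the longest coding isoform and 65.6% by the shortest exon. The median log2 enrichment was 4.31 with p below 1e-05 and 1.37 from plain counts. The causes were not tested, other than the smaller sets and stricter definitions themselves. Reducing WT peaks to exons (5454 peaks) and keeping peaks with unique central bases (5134), both chosen after the data were seen, changed no region or stage share beyond its interval. The A5-KO-only shares near stop codons, with GGACT, in first-batch PP and in long exons were below those of shared peaks in all 7 settings in which the sets were compared, but among peaks of up to 75 nt the GGACT share was 7.39% in A5-KO-only and 6.95% in shared peaks, with overlapping intervals.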

Other observations

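Gene families, grouped after the values were seen by how the symbol begins, carried A5-KO-only peaks at shares from 35.8% to 55.6%, beside the 46.1% of all eligible genes. Noncoding genes whose symbol begins in the same way were counted too, such as the lncRNA ZNF213-AS1. Genes with a ZNF symbol, mostly those of zinc finger DNA-binding repressors with a long last exon, had them on 128 of 358 eligible genes (35.8%). Of their 171 peaks, 88.3% lay in exons of at least 400 nt. Solute carrier genes, which encode membrane transporters, had them on 76 of 164 (46.3%), with 38.4% of placed peaks in the CDS. Ubiquitin ligases of the RNF and TRIM kind had them on 36 of 80 (45.0%). Protocadherin genes had them on 12 of 31 (38.7%), and all 14 of those peaks lay in such long exons. KIAA genes, named by their cDNA clones, had them on 10 of 18 (55.6%).

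On several kinds of pseudogene the placement of reads was less certain than on protein-coding genes. The central 31 bases occurred more than once in the genome for 18 of 68 A5-KO-only peaks on processed pseudogenes (26.5%), for 9 of 21 on unprocessed ones (42.9%) and for 192 of 4561 on protein-coding genes (4.21%).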
